A study of Homo sapiens with 2 samples.

Results

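The collagen genes studied here are the 42 protein-coding genes on chromosomes 1 to 22 whose RefSeq symbol is COL, a number, A and a number, out of 19122 protein-coding genes on those chromosomes. The rule for membership used the symbol and chromosome and no measured value. DNase I hypersensitivity was measured in Saos-2 and U2OS, both established human cell lines derived from osteosarcoma, a bone tumour, with 1 library per line and no treatment named in the labels. DNase I cuts DNA where nucleosomes do not protect it, and a region with many cuts is called a hotspot. The values below come from the hotspots that the authors called in each library at a false discovery rate of 0.05, in coordinates of hg38. A window is the gene span plus 10 kb on each side, and covered bases are the bases of that window inside hotspots. The windows held 217 of the 51556 Saos-2 hotspots and 222 of the 63388 U2OS hotspots, each counted once.

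Collagens are secreted or membrane proteins built of chains that wind into a triple helix, each chain carrying glycine at regular steps. Fibrillar collagens form the cross-striated fibrils of bone, skin and tendon, and collagen I is the main protein of bone matrix. Collagen IV forms the sheet of basement membranes, collagen VI forms beaded microfilaments around cells, FACIT collagens sit on the surface of fibrils, and transmembrane collagens are anchored in the plasma membrane. The chains are modified and folded in the endoplasmic reticulum, exported, trimmed outside the cell and crosslinked by lysyl oxidases.

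With 1 library per line no difference has a replicate error, so none was tested and no p-value is given. The number of reads behind each list is unknown. On chromosomes 1 to 22 U2OS had 1.24-fold as many hotspots as Saos-2 and 1.26-fold as many covered bases. Intervals given for shares (Wilson, 95%) and for ratios of hotspot numbers (exact, 95%) cover counting error only. Neighbouring hotspots are not independent. Of 9 osteoblast marker genes, 8 had a hotspot in their window in each line, and the list summed to 8245 covered bases in Saos-2 and 8500 in U2OS. SPP1, the gene of osteopontin, had no hotspot in either line. Single members of the list went both ways, with ALPL at 941 bases in Saos-2 and 2543 in U2OS, and RUNX2 at 2799 and 1575. The 4 epithelial markers summed to 2228 bases in Saos-2 and 7753 in U2OS, although EPCAM among them had 243 and 0. The 3 leukocyte markers, with a hotspot in every window in both lines, summed to 1406 and 2948. Each window was summed on its own, so bases in overlapping windows of a list count more than once. The fibroblast list summed to 2840 and 1965, the chondrocyte list to 1692 and 1268 and the endothelial list to 3432 and 5646. The part of these differences in the results below was not tested.

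The 250 bases before the annotated start are shown for 5 collagen genes, because they present each state that was found at a start: a hotspot in both lines, in 1 line, or in neither. The sequences are those of RefSeq on GRCh38.p14, which shares its primary assembly with hg38, and read 5′ to 3′ along the gene. Capitals mark bases inside a hotspot: of both lines for COL5A1 (chr9:134641553-134641802, plus strand) and COL12A1 (chr6:75206054-75206303, minus strand), of U2OS for COL13A1 (chr10:69801656-69801905, plus strand) and of Saos-2 for COL24A1 (chr1:86156773-86157022, minus strand). COL4A2 (chr13:110307034-110307283, plus strand) has no base in a hotspot of either line.
COL5A1: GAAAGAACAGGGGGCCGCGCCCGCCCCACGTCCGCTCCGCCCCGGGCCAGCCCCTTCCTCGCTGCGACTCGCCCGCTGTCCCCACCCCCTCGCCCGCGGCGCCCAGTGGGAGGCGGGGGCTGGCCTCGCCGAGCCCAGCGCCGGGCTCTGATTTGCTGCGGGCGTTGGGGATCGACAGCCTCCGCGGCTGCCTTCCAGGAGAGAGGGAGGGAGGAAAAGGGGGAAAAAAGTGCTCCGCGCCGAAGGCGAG
COL12A1: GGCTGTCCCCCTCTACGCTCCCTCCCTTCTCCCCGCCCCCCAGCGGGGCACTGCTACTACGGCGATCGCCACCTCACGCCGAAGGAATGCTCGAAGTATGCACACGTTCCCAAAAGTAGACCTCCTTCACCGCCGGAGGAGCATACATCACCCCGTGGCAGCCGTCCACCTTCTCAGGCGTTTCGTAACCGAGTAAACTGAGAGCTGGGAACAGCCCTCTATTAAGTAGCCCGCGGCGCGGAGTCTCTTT
COL13A1: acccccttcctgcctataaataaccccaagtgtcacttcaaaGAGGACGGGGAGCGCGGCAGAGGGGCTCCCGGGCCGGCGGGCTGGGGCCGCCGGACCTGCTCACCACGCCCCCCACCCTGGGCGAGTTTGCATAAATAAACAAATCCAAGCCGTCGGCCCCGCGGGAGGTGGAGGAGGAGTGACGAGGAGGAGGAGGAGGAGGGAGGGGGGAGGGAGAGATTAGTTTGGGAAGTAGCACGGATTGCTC
COL24A1: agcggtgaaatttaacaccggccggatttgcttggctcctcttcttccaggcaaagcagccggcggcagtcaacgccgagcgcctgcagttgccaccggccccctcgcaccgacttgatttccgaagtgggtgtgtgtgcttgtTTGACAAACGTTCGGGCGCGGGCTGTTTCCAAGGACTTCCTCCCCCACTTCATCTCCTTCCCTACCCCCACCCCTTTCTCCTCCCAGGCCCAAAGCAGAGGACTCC
COL4A2: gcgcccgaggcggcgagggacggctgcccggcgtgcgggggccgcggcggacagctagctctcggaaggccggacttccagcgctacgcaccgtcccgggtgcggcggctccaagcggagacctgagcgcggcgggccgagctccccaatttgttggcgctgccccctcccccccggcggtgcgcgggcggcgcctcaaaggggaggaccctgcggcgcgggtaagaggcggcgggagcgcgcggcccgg

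In COL5A1, which encodes a chain of the collagen V that takes part in fibril assembly, all 250 bases lay inside a hotspot in both lines, and the same held for COL12A1, the gene of the FACIT collagen XII. In COL13A1, the gene of a transmembrane collagen, 208 of the 250 bases lay inside a U2OS hotspot and 0 inside a Saos-2 one. The reverse was found at COL24A1, a fibrillar collagen gene, with 106 bases in a Saos-2 hotspot and 0 in U2OS. The COL4A2 sequence is the GC-richest of the 5, at 78.8% with 40 CpG dinucleotides. COL4A2 and COL4A1, which encode the major chains of collagen IV, are transcribed away from each other and are 126 bases apart, so this stretch also holds the start of COL4A1.

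Among the collagen genes with a known start, a hotspot there was less frequent than over all genes. RefSeq promoter entries were matched for 30 of the 42 members. The other 12 were COL1A1, COL1A2, COL2A1, COL3A1, COL5A2, COL6A1, COL6A5, COL8A1, COL9A3, COL14A1, COL20A1 and COL22A1. Within 1 kb of the start, 6 of 30 genes had a Saos-2 hotspot (20.0%, interval 9.51 to 37.3%) and 6 of 30 had a U2OS hotspot. Over all 15100 protein-coding genes with a promoter entry, the start was called in 49.6% in Saos-2 and in 54.1% in U2OS. Neither line had one at 22 of 30 collagen starts (73.3%, interval 55.6 to 85.8%), compared with 41.2% of all starts. COL5A1, COL7A1, COL12A1 and COL27A1 had a start hotspot in both lines, COL11A1 and COL24A1 in Saos-2, and COL9A2 and COL13A1 in U2OS. A mixed rule also counted a hotspot within 1 kb of either gene end for the other 12 members. The numbers were then 9 of 42 in Saos-2 and 12 of 42 in U2OS. With either end counted for every gene, both lines had 12 of 42, so the difference depended on the rule. No share of all genes is given under these rules, and the shares above hold only for genes with a promoter entry. The genes added by the mixed rule were COL5A2 and COL14A1 in both lines, COL6A1 in Saos-2, and COL1A1, COL8A1, COL9A3 and COL22A1 in U2OS. For these genes no promoter entry told which end is the start. The COL5A2 hotspot, at the upper end of its span, is also at the start of WDR75.

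The widest start hotspot belonged to COL7A1, the gene of the collagen VII of skin anchoring fibrils: 1190 bp in Saos-2, with a −log10 significance of 23.8, against 450 bp and a value of 4.54 in U2OS. The −log10 significance is the authors' own value for each hotspot and ranks hotspots within a list. Read depth is unknown, so values set side by side for the lines may differ in scale. At COL12A1 Saos-2 had 488 bp with a value of 13.1 across the start, and U2OS 435 bp with 9.13. COL5A1 had 297 bp with 5.61 in Saos-2 and 314 bp with 7.49 in U2OS. At COL27A1, a fibrillar collagen gene, Saos-2 had 68 bp with 1.45, and U2OS had 270 bp with 9.23. COL7A1 and COL12A1 thus had the higher value in Saos-2, and COL5A1 and COL27A1 in U2OS. The start hotspots found in a single line had 1.62 for COL11A1 and 1.99 for COL24A1 in Saos-2. In U2OS the one across the COL13A1 start had 6.36 and the one at COL9A2, a gene of cartilage collagen IX, had 3.77.

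Few CpG-rich collagen starts had a hotspot. CpG dinucleotides were counted in the 300 bases of the promoter entries, from 250 before to 50 after the start. An observed to expected CpG ratio of at least 0.6 was found at 19 of 30 collagen starts (63.3%) and at 66.3% of all starts. Among starts with that ratio, 4 of 19 collagen genes (21.1%, interval 8.51 to 43.3%) had a Saos-2 hotspot, compared with 66.5% of all genes. In U2OS, 5 of 19 did (26.3%, interval 11.8 to 48.8%), compared with 71.7%. Below that ratio the collagen shares were 2 of 11 in Saos-2 and 1 of 11 in U2OS, beside 16.2% and 19.5% of all genes. CpG-rich collagen starts without a hotspot in either line included COL4A1, COL4A2, COL15A1, COL18A1 and COL25A1.

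**Figure D1:**
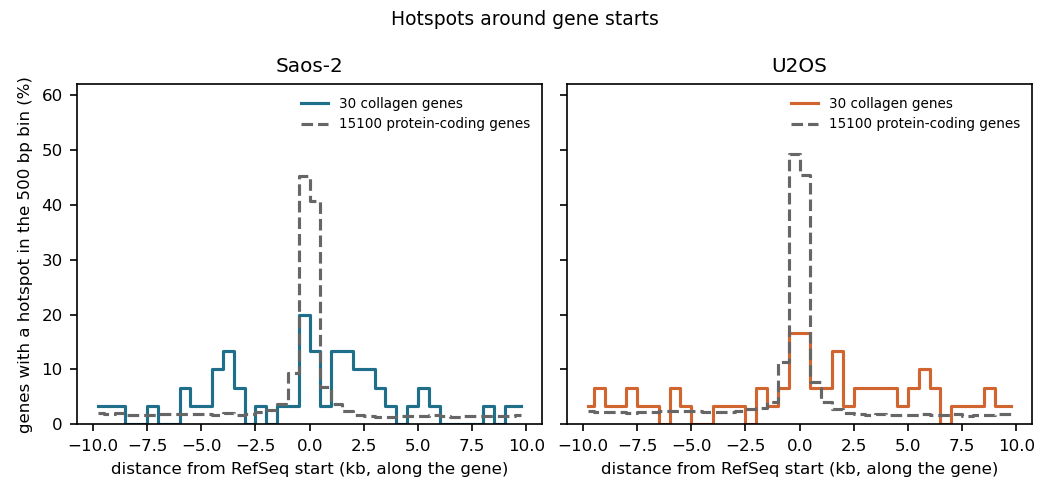
Share of genes with a hotspot in bins of 500 bp around the RefSeq start (x axis in kb, positive along the gene), for 30 collagen genes (solid, coloured) and 15100 protein-coding genes (dashed, gray), in Saos-2 (left) and U2OS (right). The peak just before the start reached 20.0% of collagen genes against 45.3% of all genes in Saos-2, and 16.7% against 49.3% in U2OS.

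A little inside the gene, hotspots were more common at collagen genes than over all genes, but not there alone. Between 1 and 3 kb downstream of the start, 8 of 30 collagen genes had a Saos-2 hotspot (26.7%) and 7 of 30 a U2OS hotspot (23.3%). The values for all genes were 6.64% and 7.56%. COL5A1, COL5A3, COL11A1, COL12A1, COL16A1 and COL27A1 were among them in both lines. COL24A1 and COL26A1 were found in Saos-2 and COL9A2 in U2OS. This interval was chosen after the profile around the start had been seen.

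Short motifs were searched on both strands of the same 300 bases, as a description of the letters only. TATAAA was found in 5 of 30 collagen entries (16.7%) and in 9.71% of all 15100 entries. CCAAT occurred in 8 of 30 (26.7%) against 36.0%. The GC box GGGCGG occurred in 18 of 30 (60.0%) against 58.9%. The E-box CANNTG occurred in 16 of 30 (53.3%) against 64.3%. The AP-1 letters TGANTCA and the RUNX letters TGTGGT were in 0 of 30 collagen entries, against 5.70% and 10.8% of all entries, which says only that these letters are not in these windows.

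In Saos-2 171 of 217 collagen hotspots (78.8%) and in U2OS 181 of 222 (81.5%) overlapped a member's span. Gene span made up 89.1% of the bases of these windows. Collagen genes are long: the median window was 153 kb, against 44.5 kb for all protein-coding genes, with a range from 36.8 kb for COL9A2 to 514 kb for COL25A1. The density of hotspots was similar to that of other genes, with a median of 2.75 per 100 kb in Saos-2 and 2.85 in U2OS, compared with 2.79 and 3.20 over all genes. Within 1 kb of the start of another protein-coding gene, or of an end where no start was known, lay 8 of the Saos-2 and 9 of the U2OS hotspots. Examples are PEF1 beside COL16A1, WDR75 beside COL5A2 and TMEM106C beside COL2A1.

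Hotspots were counted as shared when they had 1 bp or more in common. In collagen windows 111 of 217 Saos-2 hotspots were shared (51.2%, interval 44.5 to 57.7%). The value over the windows of all protein-coding genes was 60.9% (60.4 to 61.5%). For U2OS it was 109 of 222 (49.1%, interval 42.6 to 55.6%), against 51.7% over all windows. Shared hotspots had higher values. Their median significance was 4.08 against 3.25 for the others in Saos-2, and 6.58 against 3.39 in U2OS. Among 105 sites where 1 hotspot of each line overlapped only the other, U2OS had the higher significance at 74 (70.5%). On chromosomes 1 to 22 it did at 63.1% of 26999 such sites, where the medians were 5.38 in Saos-2 and 7.33 in U2OS.

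The strongest collagen hotspots were shared. In U2OS the highest value, 71.0, belonged to a hotspot inside COL28A1 (chromosome 7, 7492469 to 7492962), in the top 0.114% of the list, and the overlapping Saos-2 hotspot had 18.3. In Saos-2 the highest value, 48.4, lay above the upper end of COL9A1 (chromosome 6, 70311958 to 70312634), a gene of the FACIT collagen IX of cartilage, where U2OS had 30.9. The next in Saos-2 were inside COL24A1 (26.1, with 19.8 in U2OS) and inside COL21A1 (25.9, with 9.29 in U2OS). The second highest U2OS value, 37.5, was at the start of PEF1 in the COL16A1 window, where Saos-2 had 11.1. Among hotspots of a single line, the highest Saos-2 values were inside COL5A1 (22.4), beyond the upper end of COL6A1 (16.3) and beyond the lower end of COL5A3 (16.1). The highest in U2OS were 19.7 and 16.6, both inside COL22A1, and 11.8 beyond the upper end of COL21A1.

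By covered bases, 22 members had more in U2OS, 18 had more in Saos-2 and 2 had equal values. Over all genes 53.6% had more in U2OS and 33.0% more in Saos-2. The members' median log2 ratio of U2OS to Saos-2, with 100 bp added to each value, was 0.05, beside 0.08 for all genes. A gene was called when this ratio was at least 2-fold and at least 300 bases were covered in a line. Higher in U2OS were 8 of 42 members, against 15.9% of all genes. Higher in Saos-2 were 6 of 42, against 6.25%. The U2OS calls were COL1A1, COL2A1, COL3A1, COL13A1, COL17A1, COL19A1, COL22A1 and COL23A1. The Saos-2 calls were COL4A1, COL6A1, COL6A2, COL6A3, COL6A6 and COL24A1. After each line was scaled to its covered bases on chromosomes 1 to 22, 5 members were called towards U2OS and 9 towards Saos-2. This scaling lowers U2OS relative to Saos-2 at every gene, and the shares of all genes under the scaling are not given here. COL2A1, COL3A1 and COL19A1 were then no longer called, and COL4A2, COL5A3 and COL7A1 were called towards Saos-2. A hotspot in Saos-2 only was found for 2 members, COL6A1 and COL6A2, against 4.08% of all genes, and in U2OS only for 0 members, against 10.9%. COL20A1, a FACIT gene, was the 1 member without a hotspot in either line, against 13.3% of all genes, whose windows are shorter. Median covered bases of a window were 771.5 in Saos-2 and 1045.5 in U2OS for members, and 438 and 550.5 for all genes. The part of window length in the other shares of this paragraph was not tested.

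**Figure D2:**
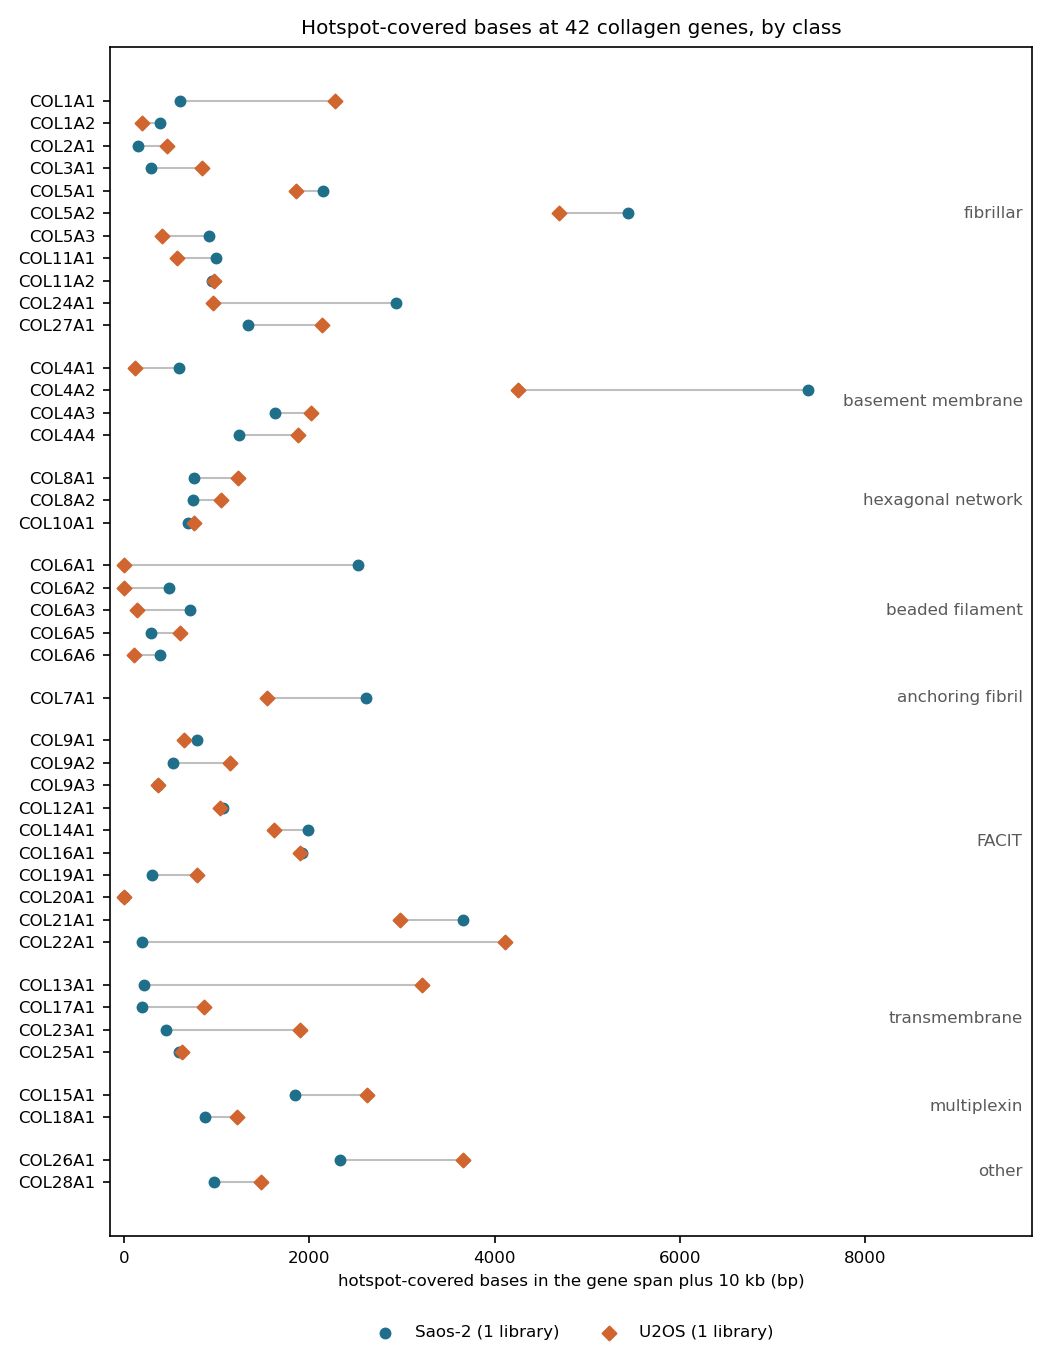
Covered bases (x axis, bp) in the window of each of the 42 collagen genes (rows, grouped by class) in Saos-2 (circles) and U2OS (diamonds), 1 library each, with a line joining the values of a gene. COL4A2 and COL5A2 have the most covered bases in both lines, and COL6A1, COL22A1 and COL13A1 are far apart between the lines.

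The fibrillar class had 11 genes, with 68 Saos-2 and 57 U2OS hotspots. COL1A1 (gene 1277, chromosome 17, 50184101 to 50201631), the gene of the major chain of collagen I, had 2 hotspots and 601 covered bases in Saos-2 and 8 hotspots and 2280 bases in U2OS. Both Saos-2 hotspots were overlapped by U2OS ones and neither lay in the gene. In U2OS 3 hotspots lay in the gene, from 50200118 to 50201036, near its upper end, where transcription of COL1A1 begins. Their significance was 4.61, 2.07 and 2.22. The surroundings moved in the same direction: within 2 Mb outside the window Saos-2 had 90 and U2OS 159 hotspots. COL1A2 (gene 1278, chromosome 7), the gene of the other collagen I chain, was not called. It had 391 covered bases in Saos-2 and 199 in U2OS, all above its upper end, with none in the gene in either line.

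COL3A1 (gene 1281, chromosome 2), a gene of the fibrillar collagen of soft tissues and vessels, had 287 covered bases in Saos-2 and 842 in U2OS. Both Saos-2 hotspots were shared, and U2OS had a further one at 188984730 to 188984997 with a value of 6.40. COL2A1 (gene 1280, chromosome 12), the gene of cartilage collagen, had 154 and 461 covered bases. Its shared hotspot lay at TMEM106C, and inside the gene U2OS had 1 hotspot of 85 bp. COL24A1 (gene 255631, chromosome 1, 85729233 to 86156984) ran the other way, with 10 hotspots and 2931 bases in Saos-2 and 4 hotspots and 960 bases in U2OS. Of the 10, 3 were shared. The unshared one at 86068907 to 86069438 had a value of 11.2. Within 2 Mb of COL24A1 Saos-2 also had more hotspots, 155 against 101.

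The 2 main genes of collagen V were close between the lines. COL5A1 (gene 1289, chromosome 9) had 6 hotspots in each, with 2146 bases in Saos-2 and 1858 in U2OS, and 4 were shared. Its strongest Saos-2 hotspot, at 134811633 to 134812009, was nonetheless absent from the U2OS list. COL5A2 (gene 1290, chromosome 2) had 23 hotspots and 5437 bases in Saos-2 and 16 hotspots and 4691 bases in U2OS. Its U2OS hotspot at 189096734 to 189097194 reached 25.6, while the overlapping Saos-2 one had 4.36. COL11A1 (gene 1301, chromosome 1), a gene of the cartilage fibril collagen XI, had 996 and 576 bases. COL27A1 (gene 85301, chromosome 9) had 1341 and 2142 bases. The other fibrillar genes were COL5A3, at 920 and 415 bases, and COL11A2, at 955 and 968 bases.

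The 4 basement membrane genes had 44 Saos-2 and 26 U2OS hotspots. COL4A2 (gene 1284, chromosome 13, 110307284 to 110513209) held the largest number of any member in Saos-2 and, with COL5A2, in U2OS. It had 28 hotspots and 7379 bases in Saos-2 and 16 hotspots and 4253 bases in U2OS. All but 2 of the U2OS ones were shared, and 14 of the 28 Saos-2 ones were. A group of 6 consecutive Saos-2 hotspots between 110327160 and 110331771 had no U2OS counterpart. The strongest U2OS hotspot of the gene, at 110485487 to 110485995, had 21.6 against 2.44 in Saos-2. In the surroundings the order was opposite, with 56 Saos-2 and 97 U2OS hotspots within 2 Mb. COL4A1 (gene 1282) had 595 and 116 covered bases, of which 1 hotspot in each line is also in the COL4A2 window. COL4A3 and COL4A4 encode chains of the kidney, lung and cochlear basement membranes. They had 1635 and 1245 bases in Saos-2 and 2017 and 1877 in U2OS.

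The 5 beaded filament genes, those of collagen VI, had 17 Saos-2 hotspots and 5 U2OS hotspots, of which 1 in each line was shared. COL6A1 (gene 1291, chromosome 21, 45981770 to 46005048) had 11 hotspots and 2525 covered bases in Saos-2 and 0 in U2OS. None of the 11 lay in the gene. A group of 4 lay between 45974126 and 45975289, 2 lay just below the lower end, between 45981238 and 45981616, and 5 lay above the upper end, between 46006096 and 46014164. The pair at 46010366 to 46010772 and 46010996 to 46011419 had the highest significance, 16.3 and 14.7. U2OS had no hotspot over 158 kb, from 45880667 to 46039073, a stretch with COL6A1 as its 1 complete protein-coding gene and 14 Saos-2 hotspots.

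The neighbouring COL6A2 (gene 1292, chromosome 21) had 1 Saos-2 hotspot of 490 bp, at 46092262 to 46092751, with a value of 10.3, and 0 in U2OS. Within 2 Mb of COL6A1 there were 73 Saos-2 and 59 U2OS hotspots, and on chromosome 21 as a whole 710 and 621. COL6A3 (gene 1293, chromosome 2), the gene of the other main chain of collagen VI, lies elsewhere and had 3 hotspots with 708 bases in Saos-2 and 2 with 138 bases in U2OS, none shared. Its surroundings were nearly equal, with 129 and 135 hotspots. COL6A6 (chromosome 3) had 392 bases in Saos-2 and 108 in U2OS, also without a shared hotspot. COL6A5, its neighbour, was higher in U2OS, with 296 and 605 bases, and held the 1 shared hotspot of the class, at 5.46 in Saos-2 and 20.5 in U2OS.

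Of the 4 transmembrane collagen genes, 3 were called higher in U2OS. COL13A1 (gene 1305, chromosome 10, 69801906 to 69959144), whose product is found at adhesion sites and neuromuscular junctions, had 3 hotspots and 220 bases in Saos-2 and 13 hotspots and 3215 bases in U2OS. The Saos-2 hotspots were 51 to 87 bp wide with values of at most 2.05. In U2OS the hotspots included the start, at 69801698 to 69802029, and the strongest, 14.1, at 69807149 to 69807504. Within 2 Mb there were 98 Saos-2 and 159 U2OS hotspots. COL23A1 (gene 91522, chromosome 5) had 2 hotspots with 459 bases in Saos-2 and 10 with 1897 bases in U2OS. Saos-2 had no hotspot over 347 kb, from 178204515 to 178551174, which reaches from below the lower end into the gene. The 1 shared site was stronger in Saos-2, at 13.2 against 2.32. COL17A1, the gene of a hemidesmosome collagen of skin, had 198 and 863 bases, and COL25A1, expressed in neurons, had 590 and 632.

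Among FACIT genes COL22A1 (gene 169044, chromosome 8, 138588235 to 138914041), the gene of a collagen of tissue junctions such as muscle and tendon, had the largest difference in covered bases of all members. By the log2 ratio, COL6A1 was further from 0, at -4.71 against 3.85. COL22A1 had 1 hotspot and 192 bases in Saos-2 and 15 hotspots and 4110 bases in U2OS. The Saos-2 hotspot was shared, at 4.58 against 6.49 in U2OS. The surroundings differed as well, with 25 Saos-2 and 104 U2OS hotspots within 2 Mb, the largest regional ratio of any member. COL12A1 (gene 1303, chromosome 6) had similar values in both lines, with all 4 Saos-2 hotspots shared and 1064 and 1039 bases. COL19A1 had 308 bases in Saos-2 and 792 in U2OS. COL9A2 had 535 and 1145, with 73 and 154 hotspots in its surroundings. The other genes of the class with hotspots, COL9A1, COL9A3, COL14A1, COL16A1 and COL21A1, had from 371 to 3657 bases in Saos-2 and from 371 to 2977 in U2OS. COL9A3 had exactly 371 bases in each line, but its 2 hotspots per line lay at different places.

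**Figure D3:**
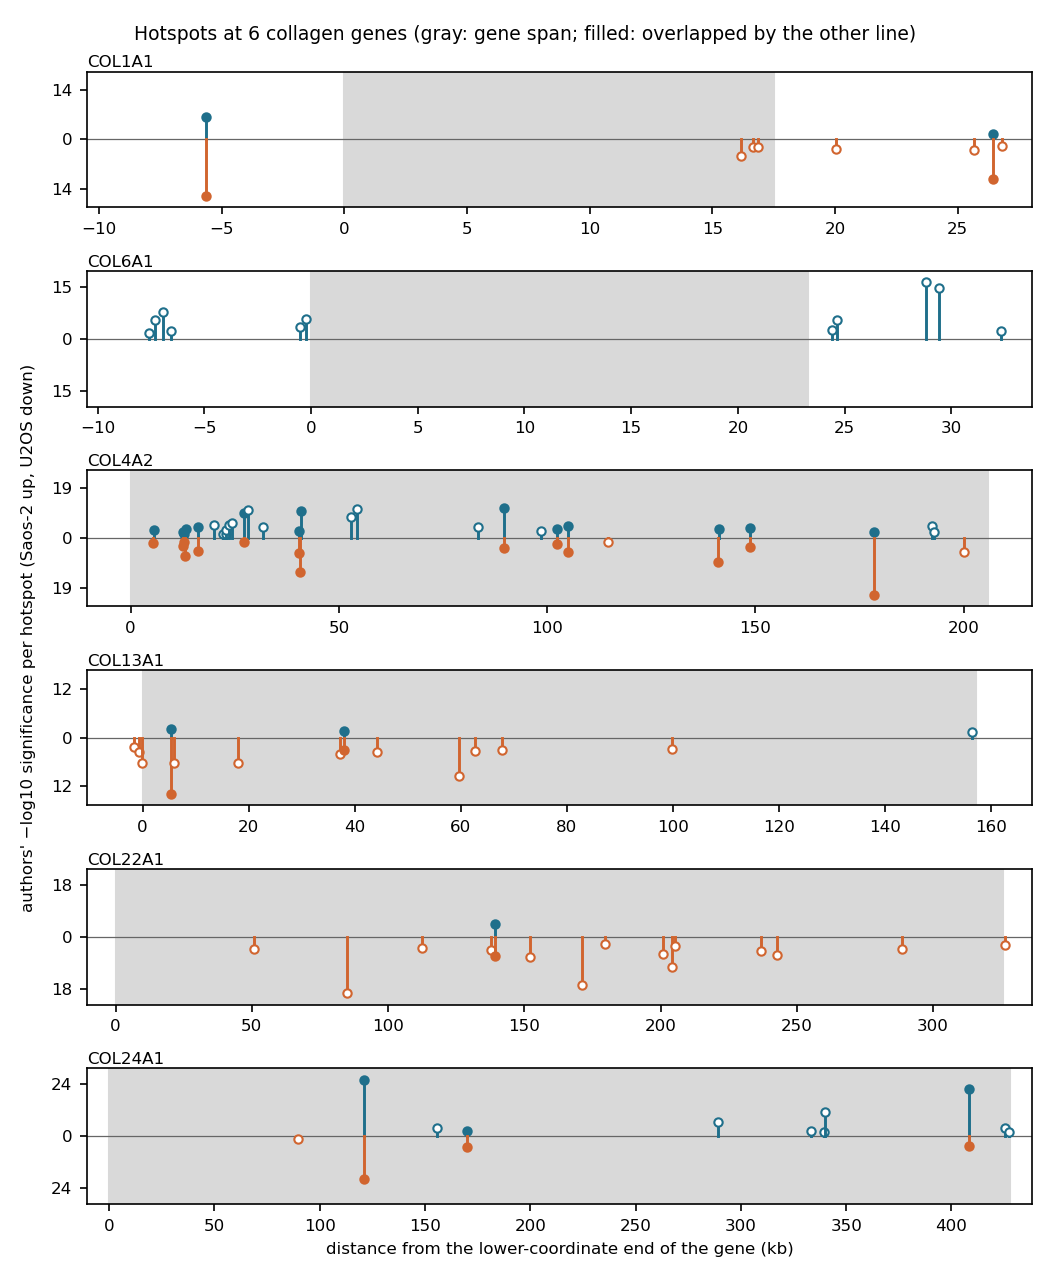
Hotspots at COL1A1, COL6A1, COL4A2, COL13A1, COL22A1 and COL24A1, by distance from the lower-coordinate end of the gene (x axis, kb) and the authors' −log10 significance (y axis, Saos-2 upward in blue, U2OS downward in orange). Gray marks the gene span and filled circles mark hotspots overlapped by the other line. The 11 Saos-2 hotspots of COL6A1 flank the gene, while 11 of the 13 U2OS hotspots of COL13A1 overlap the gene and 2 lie upstream of its start.

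In the remaining classes no member was called by the 2-fold rule without scaling. COL10A1 (gene 1300, chromosome 6), the gene of the collagen of hypertrophic cartilage, had 688 bases in Saos-2 and 761 in U2OS, and 1 of its 3 hotspots in each line was shared. COL8A1, a gene of network collagen VIII of vessels and cornea, had 754 and 1226 bases, and its surroundings held 45 Saos-2 and 119 U2OS hotspots. COL8A2 had 748 and 1052. COL18A1 (gene 80781, chromosome 21), whose product releases endostatin, had 3 hotspots with 880 bases in Saos-2, all shared, and 5 with 1221 bases in U2OS. It thus went against its surroundings, where Saos-2 had 98 hotspots and U2OS 67. The hotspot at 45427514 to 45428035 had a value of 21.8, against 4.12 for the U2OS one overlapping it. COL15A1, the other multiplexin gene, had 1841 and 2623 bases, COL26A1 had 2336 and 3657, COL28A1 had 969 and 1482, and COL7A1 had 2611 and 1544.

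By class, ratios were centred on chromosomes 1 to 22, so that 0 means the same ratio as those chromosomes as a whole. The log2 ratio of hotspot numbers was -2.07 (interval -3.86 to -0.57) for beaded filament genes, -1.06 (-1.82 to -0.33) for basement membrane genes and -0.56 (-1.09 to -0.03) for fibrillar genes. For transmembrane genes it was 1.18 (0.10 to 2.39). The intervals of the FACIT, hexagonal network, multiplexin, anchoring fibril and other classes included 0. For covered bases the centred log2 values were -2.71 for beaded filament, -0.78 for basement membrane, -0.40 for fibrillar and 1.84 for transmembrane genes. Single genes carried much of this, and the intervals for hotspot numbers were not recomputed without them. COL6A1 held 11 of the 17 Saos-2 and 0 of the 5 U2OS beaded filament hotspots. COL4A2 held 28 of 44 and 16 of 26 basement membrane ones, and COL13A1 3 of 10 and 13 of 28 transmembrane ones. For covered bases, the beaded filament value was -1.48 without COL6A1 and the basement membrane value -0.24 without COL4A2. The transmembrane value was 1.11 without COL13A1. The fibrillar value without COL24A1 was -0.21, and the FACIT value of 0.09 became -0.37 without COL22A1. Over the whole family the uncentred log2 ratio of hotspot numbers was 0.03 (-0.24 to 0.31), while that of chromosomes 1 to 22 was 0.30, inside the interval.

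**Figure D4:**
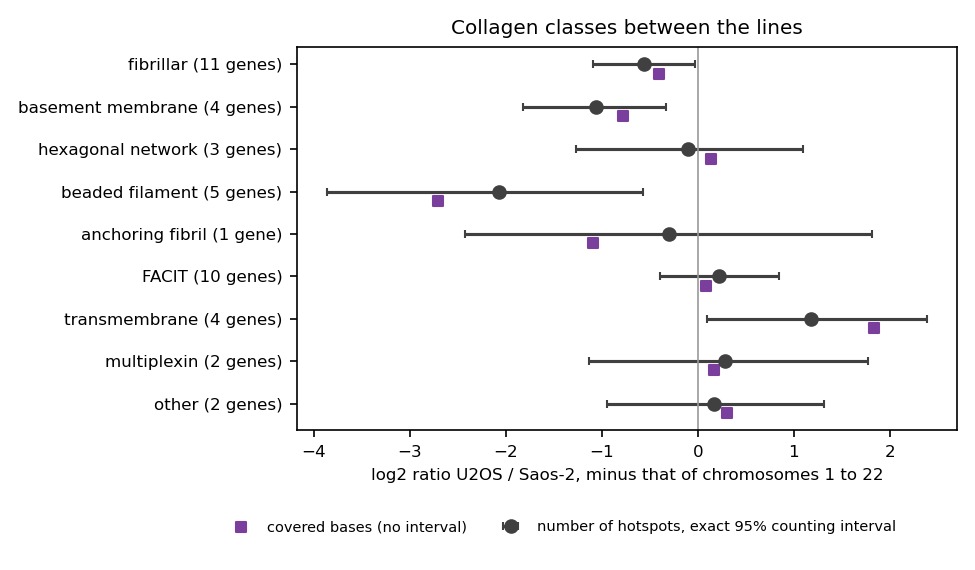
Centred log2 ratio of U2OS to Saos-2 for 9 collagen classes (rows), for the number of hotspots with exact 95% counting intervals (circles) and for covered bases (squares). Beaded filament, basement membrane and fibrillar genes lie below 0 and transmembrane genes above 0. Their intervals do not include 0, but the fibrillar one ends at -0.03. The intervals cover counting error only and treat neighbouring hotspots as independent, which they are not, so they do not test the classes. Intervals without the leading gene of a class were not computed.

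Each gene was also set beside its surroundings. Across the 42 members the log2 ratio of covered bases in the window and that within 2 Mb outside it had a Spearman correlation of 0.54 and a Pearson correlation of 0.59. These points share the same pair of libraries, and neighbouring members share surroundings. Centred on the 2 Mb surroundings in place of chromosomes 1 to 22, the beaded filament value was -2.31 and the basement membrane value -0.85. The fibrillar value was -0.25 and the transmembrane value 1.62. Copy number was not measured here, and a difference in copy number and one in accessibility cannot be told apart.

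**Figure D5:**
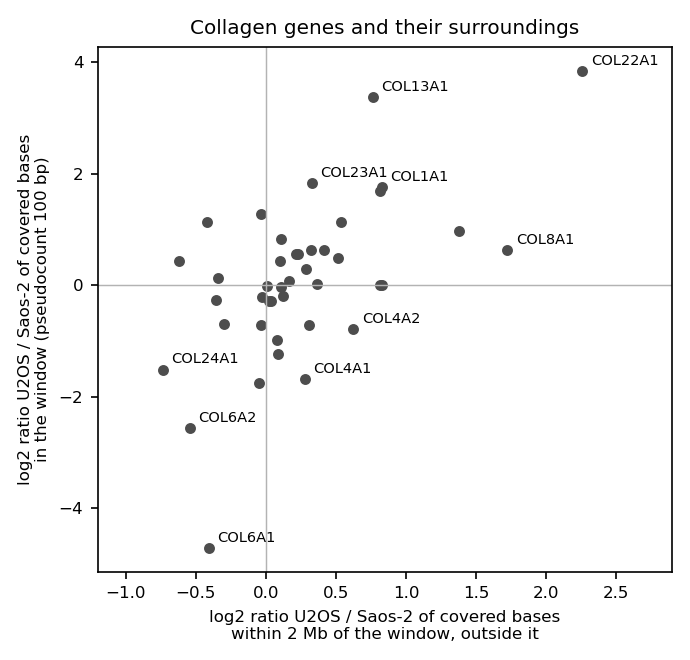
Log2 ratio of U2OS to Saos-2 covered bases in the window of each of the 42 collagen genes (y axis, 100 bp added to each value) against the same ratio within 2 Mb outside the window (x axis), 1 point per gene. COL22A1 is high on both axes, COL4A1 and COL4A2 lie below 0 with surroundings above 0, and COL6A1 is lowest with surroundings at -0.41.

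The proteins that modify, export, trim, crosslink and bind collagen were examined as a list of 46 genes. Of these, 10 were called higher in U2OS and 5 in Saos-2 by the same rule, beside the 15.9% and 6.25% given above for all genes, and the median log2 ratio was 0.27. A hotspot in U2OS only was found for 7 of 46 (15.2%), against 10.9% of all genes. A hotspot in Saos-2 only was found for 1 of 46 (2.17%), against 4.08% of all genes. That gene was LAIR1, of a leukocyte collagen receptor, with 317 bases. Start hotspots were found at 17 of 37 genes with a promoter entry in Saos-2 (45.9%, interval 31.0 to 61.6%) and 25 of 37 in U2OS (67.6%, interval 51.5 to 80.4%). The shares of all genes were 49.6% and 54.1%, and that of the collagens was 20.0% in each line.

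SERPINH1, the gene of the collagen chaperone HSP47, had 0 hotspots in Saos-2 and 3 with 847 bases in U2OS, where the start was included. The same split between 0 and several hotspots was seen for 2 proteases that trim procollagen: ADAMTS2, with 8 hotspots and 2053 bases in U2OS, and TLL1, with 8 and 1566. The collagen receptors ITGA2, with 5 hotspots and 924 bases in U2OS, and GP6 of platelets, with 2 and 724, also had 0 in Saos-2. LOX, the lysyl oxidase gene, had 0 and 1, and P3H3, a prolyl hydroxylase family gene, had 0 and 1. The largest differences towards U2OS among genes with hotspots in both were LOXL2, a crosslinking enzyme gene, with 595 bases in Saos-2 and 3618 in U2OS, ITGA1 with 1603 and 3003, and CREB3L1, a transcription factor gene of the collagen secretory pathway, with 532 and 1873.

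The largest differences towards Saos-2 were in ITGA10, a collagen receptor gene of chondrocytes, with 1714 bases in Saos-2 and 589 in U2OS, PLOD2, a lysyl hydroxylase gene, with 1863 and 864, and SEC23A, a coat protein gene of export vesicles, with 1077 and 213. The receptor tyrosine kinase genes DDR1, with 1654 and 891 bases, and DDR2, with 1188 and 736, were not called. Prolyl hydroxylation genes were called towards U2OS at P4HA1, with 526 and 1171 bases, and P3H1, with 351 and 834. FKBP10, the gene of a collagen chaperone, was called in the same direction with 418 and 1177. Its window overlaps that of the listed gene P3H4, which had 1210 and 1975 bases and was not called. TMEM38B, the gene of an endoplasmic reticulum ion channel, was called towards Saos-2 with 506 and 69. P4HB, the gene of the other prolyl 4-hydroxylase subunit, had 1072 and 917 bases and was not called.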

How the data were processed

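Each cell line gave 1 DNase-seq library; per the labels' protocols, nuclei were digested with DNase I for 3 min. Per the submitters' processing notes Trimmomatic 0.38 and BWA 0.7.15 were used with hg38; the hotspot caller and read filters are not given in the sources used here. The deposited lists, 1 per library, give for each hotspot a −log10 value (1.30 to 100, taken as that of the false discovery rate named by the deposited lists). The deposited score was within 0.5 of 10 times that value and was not used further. Read depth is unknown.

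Overlaps, covered bases and intervals were computed with Python 3.11.15, numpy 2.4.6, pandas 2.3.3 and scipy 1.17.1, and checked on simulated intervals. Gene spans and starts came from RefSeq tables on GRCh38.p14. Genes without a promoter entry were assessed within 1 kb of either end where all 42 members are counted. Samples were grouped by cell line; the comparison was U2OS with Saos-2, without a test. Members and lists were chosen with earlier results of these data known. Named in full were 17 fixed genes, the 5 members with the largest difference in each direction, members with hotspots in 1 line or neither, and the 3 highest hotspots per line; other members are given by values. Of the processing and receptor genes, the 5 with the largest difference in each direction and those with hotspots in 1 line were named. FKBP10, P3H4, P4HA1, P3H1, P4HB and TMEM38B were named after their values were seen. Alternatives covered windows, list length, merging, overlap, fold and pseudocount. A planned count of glycine repeats in proteins was not made, as no protein sequences were used here.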

Additional observations from a re-analysis of the deposited data

How the results depend on the processing

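No paired analysis was possible because each line had 1 library, which also left no replicate to leave out. Of 147 recomputed values, 127 stayed within their counting interval or within 1.5 times the main count and 20 moved. No class whose interval excluded 0 changed sign, though the intervals were not recomputed without single genes. The cause of the other moves was not tested.

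With the gene span alone, 1 member had hotspots in Saos-2 alone and 2 members in U2OS alone, and the beaded filament value was -0.93, since the COL6A1 hotspots lie outside the gene. With 50 kb on each side 0 members had hotspots in Saos-2 only, and with lists of equal length 5 did. The top 50% of each list left, by construction, 102 Saos-2 and 107 U2OS hotspots, of which 41.2% and 39.3% were overlapped; 6 and 5 members had hotspots in 1 line only, and 6 of 42 had a start hotspot in U2OS, down from 12. When an overlap had to span 50% of each hotspot, 36.9% of Saos-2 and 36.0% of U2OS hotspots were shared. A fold of 1.5 called 13 members higher in U2OS and 11 in Saos-2, and a fold of 4 called 2 and 2. Shares of all genes are given for the main rules only, so the member counts under changed rules have no share beside them. U2OS calls fell to 5 with 300 bp added. Scaling to the covered bases of chromosomes 1 to 22 gave 5 U2OS and 9 Saos-2 calls, where 8 and 6 were called without it. COL13A1 and COL22A1 kept their call in 9 of 9 settings, COL1A1, COL6A1, COL6A2 and COL24A1 in 8, and COL19A1 in 3. Leaving out single genes, counting either end of every gene and leaving out hotspots at starts of other genes were chosen after seeing the data.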

Other observations

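The 2 collagen genes of the X chromosome, COL4A5 and COL4A6, lie head to head and encode further chains of collagen IV. COL4A6 had 2 hotspots in each line, with 936 covered bases in Saos-2 and 391 in U2OS, and 1 in each line was shared. The highest −log10 value was 10.4 in Saos-2 and 2.63 in U2OS. COL4A5 had 0 hotspots in Saos-2 and 3 with 431 bases in U2OS, the strongest at 5.05.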
